A study of Mus musculus with 14 samples.

Results

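The genes described here are 38 interferon-stimulated genes, a chosen list of mouse symbols looked up among the gene names deposited with the count table. Each of the 38 symbols matched 1 Ensembl gene among the 37681 genes of the table, and all 38 were among the 17223 genes with enough counts to be tested. They were measured by sequencing polyadenylated RNA from the livers of 14 mice with 1 library per mouse, and the design asked how liver transcripts differed between 2 diets. In one group, HFHS, 7 mice ate a diet high in both fat and sucrose, and in the other, LFLS, 7 mice ate a diet low in both. The sources used here do not give the strain, the sex or age of the mice, or how long they were fed, and the labels name no gene change, agent or other treatment in either group.

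Interferons are secreted proteins that warn neighbouring cells of infection. Type I interferons act through the receptor IFNAR and the kinases JAK1 and TYK2, and a transcription factor complex that includes STAT2 and IRF9 then binds interferon-stimulated response elements. Interferon gamma acts through its own receptor and on gamma-activated sites. In liver, hepatocytes, Kupffer cells and endothelial cells all respond, and the induced genes encode sensors of foreign nucleic acid, blocks to viral entry and translation, GTPases that attack vacuoles of intracellular microbes, and feedback inhibitors.

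Depth was 18.2 M to 45.4 M counts per library on HFHS and 18.3 M to 52.8 M on LFLS (M for mega). The 7 hepatocyte markers summed to 55981 to 98589 CPM on HFHS and 68366 to 114309 CPM on LFLS, which fits the tissue label. Sample titles begin with the number 1 in HFHS 1 to 4 and LFLS 1 to 4, and with 2 in HFHS 5 to 7 and LFLS 5 to 7. What this title number marks is not explained in the labels, but libraries that shared it deviated together across genes, so values within each number stand beside the pooled ones. Levels are CPM, a gene's counts per mega count of its library after edgeR's TMM scaling, differences are log2 fold changes of HFHS over LFLS with their standard error, and adjusted p-values come from the quasi-likelihood test of edgeR, with the Benjamini-Hochberg method applied over all 17223 genes. In whole liver, fewer cells of a type and less RNA per cell cannot be told apart.

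The interferon-stimulated genes showed no shared direction between the diets. In the comparison by diet alone 0 of 38 passed an adjusted p of 0.05, where 2.81% of all genes tested passed (1.37% higher and 1.44% lower on HFHS). Of the 38 genes, 21 had positive and 17 had negative differences, with a median of 0.02 against -0.01 over all genes, and they ran from -0.58 (Ifitm3) to 0.61 (Gbp6). The lowest adjusted p among them was 0.0811, shared by Ifitm3 and Ifit3. At an unadjusted p of 0.05 there were 10 (26.3%), 7 with higher and 3 with lower means on HFHS, where 19.6% of all genes passed. DESeq2 also called 0 (1.22% of all genes), but at an unadjusted p of 0.05 it had 0 higher and 3 lower. Its median difference over the 38 genes was -0.07. The exact permutation test over all 3432 regroupings of the mice called 0 (2.56% of all genes), with 7 higher and 2 lower at that level. The share of all genes at that unadjusted level was not computed for either test. None of the 38 had all libraries of one diet apart from all of the other, a pattern seen in 1.65% of all genes.

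When the title number was added as a term, 5 of the 38 passed (13.2%), where 8.94% of all genes passed (4.38% higher and 4.56% lower on HFHS). Gbp7, Ifit3 and Gbp6 were higher on HFHS, and Ifitm3 and Irf7 were lower on HFHS. Limma's voom with quality weights, which called 19% of all genes, called Gbp7 and Gbp6 higher and Ifitm3, Irf7, Trim25, Stat2 and Bst2 lower. In the authors' deposited table the lowest unadjusted p among the 38 was 0.04, for Ifitm3, and all their adjusted p-values were 1.

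**Figure D1:**
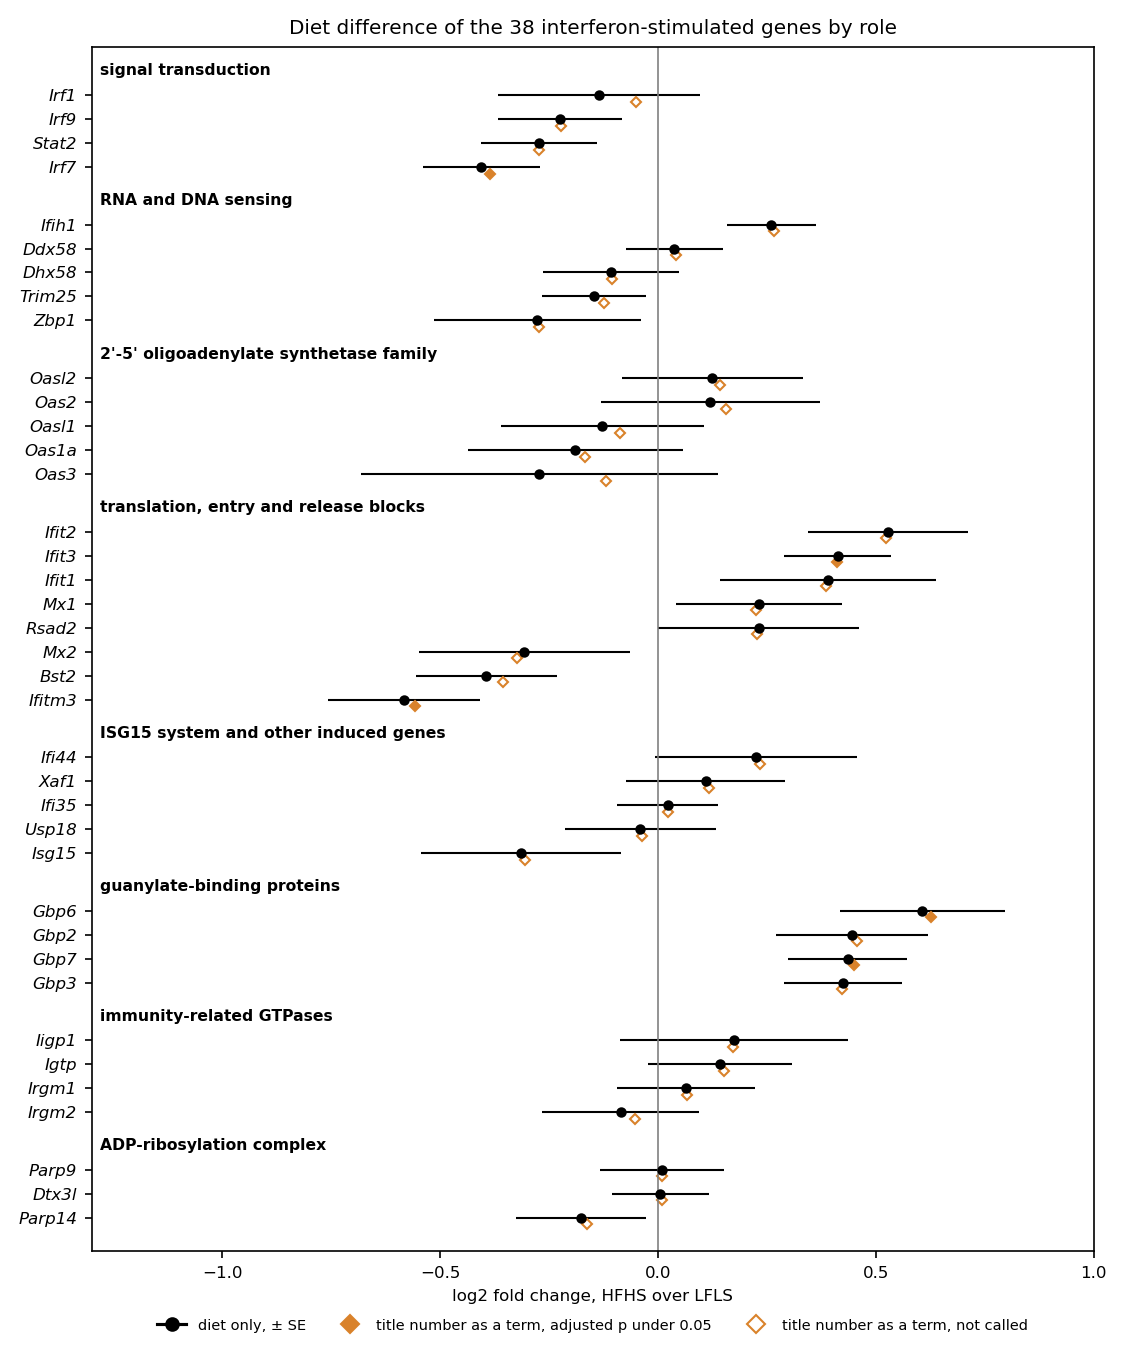
Log2 fold change (HFHS over LFLS) of the 38 genes grouped by role; black points and bars are the diet comparison with its standard error, and orange diamonds the fit with the title number as a term, filled where the adjusted p was under 0.05. Differences lie on both sides of 0, from -0.58 for Ifitm3 to 0.61 for Gbp6, and the 4 guanylate-binding proteins all lie above 0.

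Promoter windows are printed for 3 of the 5 genes that passed with the title number as a term, to show where interferon response motifs lie in them. A RefSeq table on GRCm38.p6 gave 300 bases (250 before the transcript start and 50 after) for 28 of the 38 genes. The core of the interferon-stimulated response element, GAAA, any 2 bases and GAAA on either strand, was present in 17 of these 28 genes (60.7%), against 3.99% of all 27025 genes in the table, with a gene counted where any of its windows held the motif. The gamma-activated site, TTC, any 3 bases and GAA on either strand, was present in 9 of the 28 (32.1%), against 9.55% of all genes. Below, each sequence runs 5′ to 3′ on the gene's own strand, and capitals mark matches to either motif.
Ifit3, chr19:34583279-34583578, plus strand: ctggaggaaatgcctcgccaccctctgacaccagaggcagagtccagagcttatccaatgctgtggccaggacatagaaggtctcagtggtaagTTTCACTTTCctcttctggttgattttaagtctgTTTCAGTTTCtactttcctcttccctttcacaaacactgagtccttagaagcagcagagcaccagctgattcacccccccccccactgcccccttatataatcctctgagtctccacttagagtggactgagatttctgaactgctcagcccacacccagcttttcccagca
Gbp7, chr3:142530086-142530385, plus strand: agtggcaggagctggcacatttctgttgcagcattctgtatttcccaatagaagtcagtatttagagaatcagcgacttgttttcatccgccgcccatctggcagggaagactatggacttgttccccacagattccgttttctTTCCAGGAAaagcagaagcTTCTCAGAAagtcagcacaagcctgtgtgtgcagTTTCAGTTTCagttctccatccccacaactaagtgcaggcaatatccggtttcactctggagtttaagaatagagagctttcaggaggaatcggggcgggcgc
Ifitm3, chr7:141010695-141010994, minus strand: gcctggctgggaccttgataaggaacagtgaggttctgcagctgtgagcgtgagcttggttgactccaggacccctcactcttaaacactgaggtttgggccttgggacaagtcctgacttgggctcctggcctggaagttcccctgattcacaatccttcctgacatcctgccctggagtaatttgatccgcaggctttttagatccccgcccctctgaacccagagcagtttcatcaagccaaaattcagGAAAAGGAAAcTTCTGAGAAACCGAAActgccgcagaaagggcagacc
In the Ifit3 window 2 response elements begin 156 and 122 bases before the start. In the Gbp7 window 1 response element begins 53 bases before the start, and 2 gamma-activated sites begin 106 and 87 bases before it. In the Ifitm3 window 2 response elements begin 2 and 19 bases after the start, and a gamma-activated site between them overlaps the downstream one by 3 bases. The Irf7 window held neither motif. Genes with both kinds of element thus include one with a higher mean on HFHS and one with a lower mean.

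The signal transduction genes all had lower means on HFHS. These 4 genes are Stat2 and Irf9, parts of the complex that binds response elements, Irf1, an early activator of interferon gamma targets, and Irf7, which drives the second wave of type I interferon genes. Their median difference was -0.25. By diet alone 0 of 4 passed (2.81% of all genes), and 1 passed with the title number as a term (8.94% of all genes). Irf7 (ENSMUSG00000025498) had 22.9 CPM in its lowest HFHS library, a median of 26.5 and 29.8 in its highest, against 24.3, 33.9 and 47.8 CPM on LFLS. Every HFHS library lay below the LFLS median, and LFLS 1 to 5 lay above every HFHS library, while LFLS 6 and LFLS 7 fell within the HFHS range. The means were 26.0 ± 2.83 CPM on HFHS and 34.4 ± 8.04 on LFLS (SD, n = 7 each), which differed by -0.41 ± 0.13 (adjusted p 0.112) by diet alone and by -0.39 ± 0.10 (0.0320) with the title number as a term. Among title number 1 libraries Irf7 differed by -0.52, and among number 2 libraries by -0.17. The call with the title number as a term held in 6 of the 14 fits that left out 1 library (adjusted p 0.0164 to 0.0677).

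Stat2 (ENSMUSG00000040033) ran from 60.1 CPM through a median of 69.0 to 85.0 on HFHS, against 65.8, 79.7 and 121 CPM on LFLS. Its groups overlapped, with 6 of 7 HFHS libraries below the LFLS median and LFLS 2 highest. The difference was -0.27 ± 0.13 (adjusted p 0.269), with -0.25 in number 1 and -0.28 in number 2. Irf9 (ENSMUSG00000002325) ran from 24.7 CPM through 33.5 to 42.3 on HFHS, against 30.9, 35.4 and 56.3 CPM on LFLS. LFLS 2 again stood highest and the groups overlapped, with a difference of -0.23 ± 0.14 (adjusted p 0.396), -0.25 in number 1 and -0.16 in number 2. Irf1 differed by -0.14 ± 0.23 (adjusted p 0.783) over all libraries, but by -0.40 in number 1 and 0.45 in number 2.

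The sensors of foreign nucleic acid held no call in either fit. This role holds the RNA helicases Ddx58 (RIG-I), Ifih1 (MDA5) and Dhx58 (LGP2), the ubiquitin ligase Trim25, which activates RIG-I, and Zbp1, a sensor of Z-form nucleic acid that can trigger cell death. Differences of the 5 genes ran from -0.28 (Zbp1) to 0.26 (Ifih1). Ifih1 (ENSMUSG00000026896) had a lowest library of 46.4 CPM, a median of 53.1 and a highest of 57.6 on HFHS, against 32.7, 46.8 and 50.3 CPM on LFLS. In 6 of 7 mice on HFHS it lay above the highest LFLS library, with HFHS 6 the exception. The difference was 0.26 ± 0.10 (adjusted p 0.177), 0.42 in number 1 and 0.08 in number 2, and 0.13 (adjusted p 0.337) with offsets that remove each library's trend with GC content and transcript length (the GC and length offsets).

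Trim25 (ENSMUSG00000000275) kept a narrow range on HFHS, from 127 CPM through 133 to 145, against 112, 153 and 194 CPM on LFLS. Every HFHS library lay below the LFLS median, but the 3 LFLS libraries of title number 2 lay below every HFHS library. The pooled difference was -0.15 ± 0.12 (adjusted p 0.517), with -0.31 in number 1 and 0.16 in number 2. Zbp1 differed by -0.28 ± 0.24, Dhx58 by -0.11 ± 0.16 and Ddx58 by 0.04 ± 0.11.

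The 2'-5' oligoadenylate synthetase family showed no difference past the test in either fit. Enzymes of this family answer double-stranded RNA by making the messenger that activates RNase L, though not every member does so. For Oas1a, Oas2, Oas3, Oasl1 and Oasl2 the differences ran from -0.27 (Oas3) to 0.12 (Oasl2), with adjusted p-values of 0.706 to 0.828 by diet alone. Oas3, the lowest of the 38 per length, had 0.995 CPM in its lowest HFHS library, a median of 1.37 and 3.48 in its highest, against 0.642, 1.94 and 4.11 CPM on LFLS. HFHS 1 stood far above the other 6 HFHS libraries, and the 3 LFLS libraries of number 2 were the lowest of all 14. Its highest library held 6.40 times its lowest, the widest ratio among the 38. Oas1a has near-identical copies in the mouse genome, so its counts are uncertain.

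Genes that block viral entry, translation and release fell on both sides. Ifit1, Ifit2 and Ifit3 encode proteins that bind viral RNA and translation factors, Mx1 and Mx2 are dynamin-like GTPases, Rsad2 (viperin) makes a chain-terminating nucleotide, Ifitm3 hinders fusion of enveloped viruses in endosomes, and Bst2 (tetherin) holds budding virions at the cell surface. Of these 8 genes 5 had positive and 3 had negative differences, and 0 passed by diet alone, against 2.81% of all genes. With the title number as a term Ifit3 and Ifitm3 passed in opposite directions, where 8.94% of all genes passed. Ifit3 (ENSMUSG00000074896) had 19.5 CPM in its lowest HFHS library, a median of 22.7 and 28.1 in its highest, against 14.4, 15.6 and 24.6 CPM on LFLS. The 7 HFHS libraries lay above 6 of the 7 LFLS libraries, and LFLS 2 alone reached into their range. Means were 22.8 ± 2.71 CPM on HFHS and 17.2 ± 3.64 on LFLS (SD, n = 7 each), which differed by 0.41 ± 0.12 (95% interval 0.15 to 0.67, adjusted p 0.0811), and the adjusted p was 0.0417 with the title number as a term. Within title numbers it was 0.45 and 0.38. Of the 14 fits by diet alone that left out 1 library, 1 called Ifit3, without LFLS 2 (0.52, adjusted p 0.0215), and over all 14 the adjusted p reached 0.176. With the title number as a term 3 of 14 such fits called it (adjusted p 0.0131 to 0.0975). The mouse genome holds the near-identical copy Ifit3b, which was not analysed here, so the division of reads between them is uncertain.

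Ifit2 (ENSMUSG00000045932) ran from 6.95 CPM through 7.48 to 12.1 on HFHS, against 3.06, 6.33 and 7.33 CPM on LFLS. All HFHS libraries lay above the LFLS median, and only LFLS 2 and LFLS 4 exceeded the lowest of them. The difference was 0.53 ± 0.18 (adjusted p 0.129), 0.67 in number 1 and 0.34 in number 2. Ifit1 differed by 0.39 ± 0.25 (adjusted p 0.397), and by 0.22 with the GC and length offsets, with LFLS 2 at 20.1 CPM as the highest of all libraries. Mx1 and Rsad2 each differed by 0.23, and Mx2 by -0.31, with adjusted p-values between 0.507 and 0.610.

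Ifitm3 (ENSMUSG00000025492) had the highest level per length of the 38, at 178 CPM per kilobase on HFHS and 267 on LFLS. Its lowest HFHS library had 100.5 CPM, the median was 109.7 and the highest 148, against 118, 164 and 302 CPM on LFLS. All HFHS libraries lay below the LFLS median, LFLS 1 stood far above the rest, and LFLS 5 and LFLS 6 lay within the HFHS range. Means were 121 ± 18.5 CPM on HFHS and 181 ± 59.8 on LFLS (SD, n = 7 each), which differed by -0.58 ± 0.17 (95% interval -0.95 to -0.21, adjusted p 0.0811) by diet alone and by -0.56 ± 0.13 (0.0187) with the title number as a term. It was -0.67 in number 1 and -0.37 in number 2. With the title number as a term Ifitm3 kept an adjusted p under 0.05 whichever of the 14 libraries was left out (0.00906 to 0.0492).

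Bst2 (ENSMUSG00000046718) ran from 70.6 CPM through 78.7 to 93.8 on HFHS, against 70.3, 106 and 166 CPM on LFLS. The 4 LFLS libraries of number 1 lay above every HFHS library, LFLS 6 and LFLS 7 lay within the HFHS range, and LFLS 5 lay just below it. Over all libraries the difference was -0.39 ± 0.16 (adjusted p 0.195), with -0.56 in number 1, where the adjusted p was 0.0463, and -0.05 in number 2.

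**Figure D2:**
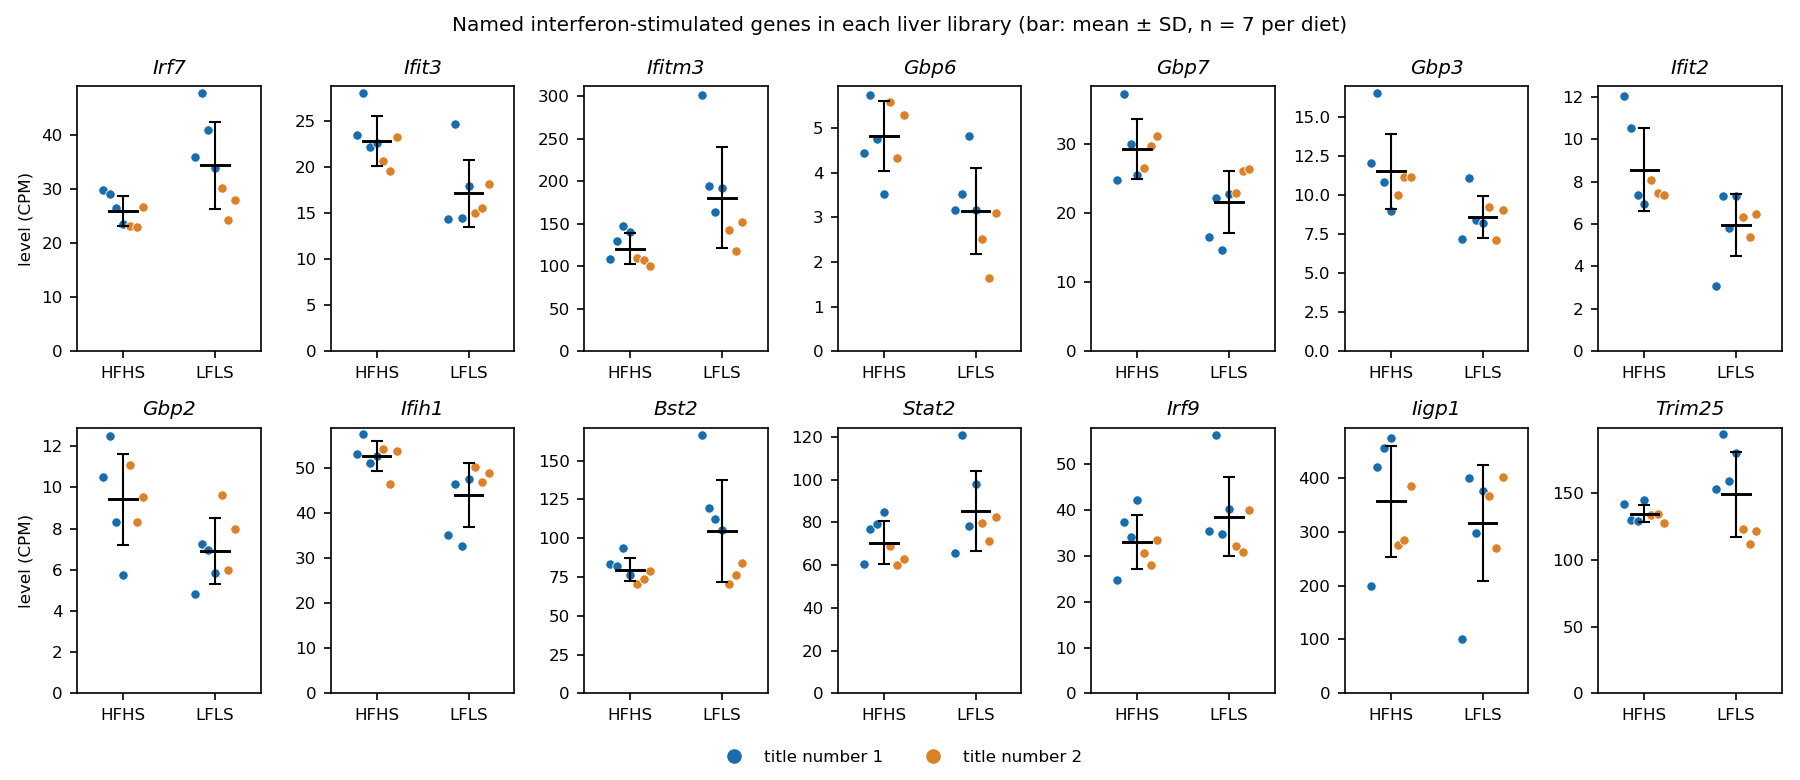
Level (CPM) of 14 genes in each library, HFHS left and LFLS right in each panel, with the mean and SD over 7 mice in black and colours for the title number. In no panel are the diets fully apart, and Irf7, Ifitm3, Bst2 and Trim25 have their 4 highest libraries among the LFLS libraries of title number 1.

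The 4 guanylate-binding proteins all had higher means on HFHS. These large GTPases, induced mainly by interferon gamma, coat vacuoles and bacteria in the cytosol and help to activate inflammasomes. Gbp2, Gbp3, Gbp6 and Gbp7 had a median difference of 0.44, and 0 of 4 passed by diet alone, against 2.81% of all genes. All 4 had an unadjusted p under 0.05, against 19.6% of all genes. Gbp6 and Gbp7 passed with the title number as a term, against 8.94% of all genes. The 4 genes are related in sequence, and Gbp2, Gbp3 and Gbp7 lie on 1 chromosome, so they are not independent observations.

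Gbp7 (ENSMUSG00000040253) had a lowest HFHS library of 24.8 CPM, a median of 29.7 and a highest of 37.3, against 14.7, 22.8 and 26.5 CPM on LFLS. All HFHS libraries lay above the LFLS median, and LFLS 6 and LFLS 7 exceeded the lowest HFHS libraries. The means were 29.3 ± 4.28 CPM on HFHS and 21.7 ± 4.5 on LFLS (SD, n = 7 each), which differed by 0.44 ± 0.14 (adjusted p 0.0965) by diet alone, with an adjusted p of 0.0425 with the title number as a term. It was 0.64 in number 1 and 0.22 in number 2. The call with the title number as a term held in 2 of the 14 fits that left out 1 library (adjusted p 0.0369 to 0.0893).

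Gbp6 (ENSMUSG00000079362) ran from 3.53 CPM through 4.76 to 5.74 on HFHS, against 1.64, 3.17 and 4.82 CPM on LFLS. LFLS 3 was the only LFLS library above the lowest HFHS library. The difference was 0.61 ± 0.19 (95% interval 0.21 to 1.01) with an adjusted p of 0.0926 by diet alone and 0.0457 with the title number as a term. Of the 14 fits by diet alone that left out 1 library, 1 called Gbp6, without LFLS 3 (0.75, adjusted p 0.0416), and over all 14 the adjusted p reached 0.189. With the title number as a term 2 of 14 such fits called it (adjusted p 0.0233 to 0.105). It was 0.34 in number 1, 1.05 in number 2, and 0.40 (adjusted p 0.347) with the GC and length offsets. Gbp6 is nearly identical to Gbp10, so the division of reads between them is uncertain.

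Gbp3 (ENSMUSG00000028268) ran from 8.98 CPM through 11.1 to 16.5 on HFHS, against 7.10, 8.40 and 11.1 CPM on LFLS. Every HFHS library exceeded the LFLS median, HFHS 2 was highest, and LFLS 2, LFLS 5 and LFLS 7 exceeded the lowest HFHS library. It differed by 0.42 ± 0.14 (adjusted p 0.101), 0.49 in number 1 and 0.36 in number 2. Gbp2 (ENSMUSG00000028270) ran from 5.74 CPM through 9.52 to 12.5 on HFHS, against 4.82, 6.95 and 9.65 CPM on LFLS. In 6 of 7 HFHS libraries it exceeded the LFLS median, and HFHS 4 lay below it. Its difference was 0.45 ± 0.17 (adjusted p 0.173), 0.60 in number 1 and 0.29 in number 2.

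The immunity-related GTPases, a family that takes part in the attack on vacuoles of intracellular microbes, and the remaining roles showed no call in either fit. Iigp1 (ENSMUSG00000054072) had 199.8 CPM in its lowest HFHS library, a median of 384 and 473 in its highest, against 100.8, 366 and 402 CPM on LFLS. The groups overlapped, with HFHS 1 and LFLS 1 as the lowest library of each diet. It differed by 0.17 ± 0.26 (adjusted p 0.750), 0.41 in number 1 and -0.13 in number 2, and -0.08 with the GC and length offsets. Igtp, Irgm1 and Irgm2 differed by 0.14, 0.06 and -0.09, with adjusted p-values of 0.663 to 0.857.

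The ADP-ribosylation genes Parp9 and Dtx3l, partners in an enzyme complex, and Parp14 differed by 0.01, 0.00 and -0.18. For Dtx3l the 95% interval ran from -0.23 to 0.24 and for Parp9 from -0.29 to 0.31. The ubiquitin-like modifier Isg15 differed by -0.31 ± 0.23 (adjusted p 0.469), and Usp18, the protease that removes it and restrains the type I receptor, by -0.04 ± 0.17. Ifi35 differed by 0.02, Ifi44 by 0.22 and the pro-apoptotic Xaf1 by 0.11, none with an adjusted p under 0.469.

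The median deviation of the 38 genes from their own means differed between single libraries, and the roles did not always move together. LFLS 2 was the highest of the 14 libraries for 25 of the 38 genes (65.8%), while it was the highest for 7% of all genes tested. In that library the 38 genes lay a median of 0.54 above their own means on the log2 scale. At the other end, LFLS 6 was lowest for 12 genes and LFLS 1 for 11, with median deviations of -0.37 and -0.27. Over all genes tested, LFLS 6 was lowest for 8.27% and LFLS 1 for 23.8%. HFHS libraries had median deviations from -0.17 (HFHS 6) to 0.27 (HFHS 2). The guanylate-binding proteins did not follow LFLS 2, where their median deviation was -0.11, and they were highest in HFHS 2 at 0.63. In HFHS 1 the median deviation was 0.73 for the oligoadenylate synthetase family and -0.57 for the immunity-related GTPases. In LFLS 1 it was 0.23 for the oligoadenylate synthetase family and -0.51 for the guanylate-binding proteins.

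LFLS 2 also held the largest sum of the 16 exocrine pancreas markers, at 1816 CPM, with HFHS libraries between 16.4 and 490 CPM and LFLS libraries between 19 and 1816 CPM. None of those markers was at the table's lowest value in all libraries, and their part in the level of the 38 genes was not tested. Kupffer cell and macrophage markers, 12 of 13 matched, summed to 343 to 561 CPM on HFHS and 261 to 587 CPM on LFLS. Plasmacytoid dendritic cell markers, 8 of 8 matched and 5 tested, summed to 37.8 to 69.1 CPM on HFHS and 28.9 to 52.0 CPM on LFLS. These markers weigh unequally: Tcf4 and Ly6d reached 1295 counts in their highest library, Ccr9 656 and Siglech 55. In LFLS 2 the macrophage sum was 564 CPM, the LFLS median, and the plasmacytoid dendritic cell sum 52.0 CPM, the highest on LFLS. The same library had the lowest hepatocyte sum on LFLS, at 68366 CPM. It also had the highest T cell sum of the LFLS libraries, at 5.98 CPM, where LFLS 1 had 5.84 and the LFLS median was 5.79. T cell sums were 3.39 to 5.55 CPM on HFHS and 4.32 to 5.98 CPM on LFLS (10 of 10 markers matched, 5 tested). The NK cell sum of LFLS 2, 4.0 CPM, was the highest on LFLS (9 of 9 matched, 3 tested). NK cell sums were 2.60 to 4.37 CPM on HFHS and 2.48 to 4.0 CPM on LFLS. The table's lowest value of 1 per gene adds more CPM in LFLS 2 (18.3 M counts) than in LFLS 1 (38.5 M). The order of libraries in these small T cell and NK cell sums is therefore uncertain. The endothelial sum of LFLS 2, 317 CPM, was the LFLS median. Its B cell sum (10.2 CPM) and monocyte and neutrophil sum (9.50 CPM) were not the highest on LFLS. The part of these cells in the level of the 38 genes was not tested, and 0 genes of the 9 cell type lists passed between the diets. The spread of log2 CPM was larger on LFLS for 33 of the 38 genes (86.8%), against 79.3% of all genes, and for 24 (63.2%) without LFLS 2, against 78.7% of all genes.

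**Figure D3:**
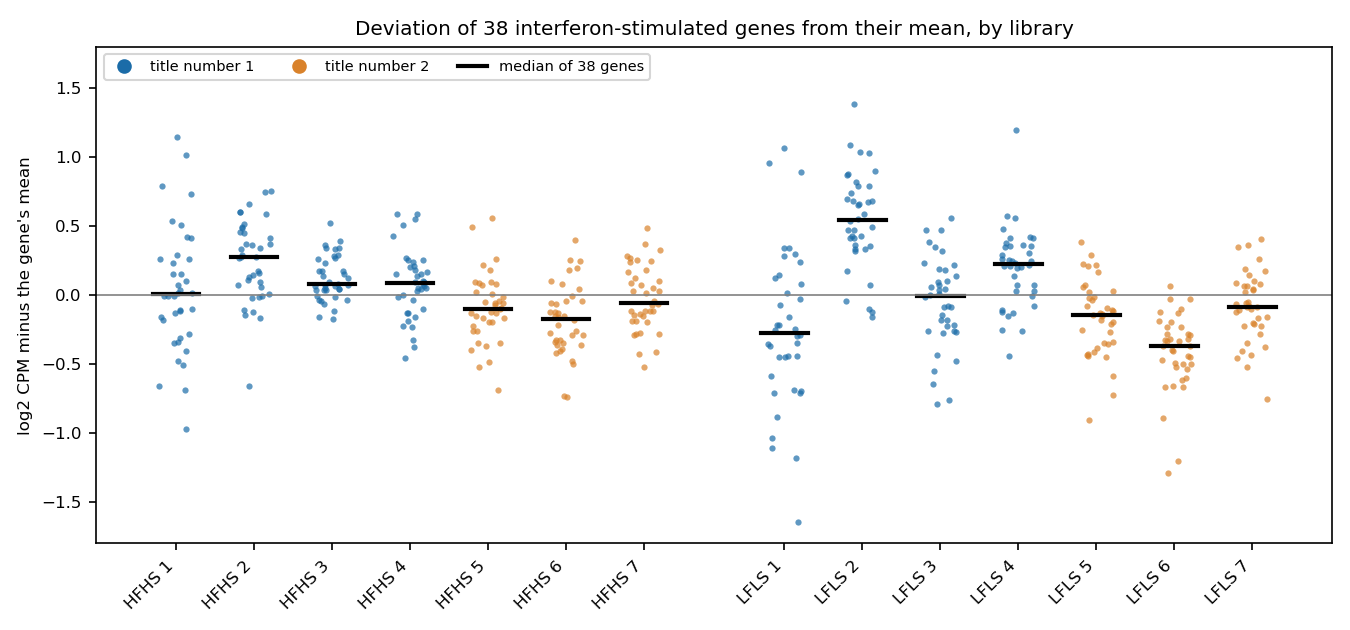
Deviation of each of the 38 genes from its own mean over 14 libraries (log2 CPM), HFHS libraries left and LFLS libraries right, with the median of the 38 genes as a black line and colours for the title number. LFLS 2 has the highest median, at 0.54, and LFLS 6 the lowest, at -0.37.

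The diet comparison was also made within each title number. In number 1 alone (4 HFHS and 4 LFLS mice) Irf7 and Bst2 were called lower, where 8.49% of all genes were called, and in number 2 alone (3 and 3 mice) 0 were called, where 1.58% of all genes were called and 12 of the 38 (31.6%) had an unadjusted p under 0.05, against 20.6% of all genes. The difference between the numbers was tested as an interaction. None of the 38 passed, where 0.883% of all genes passed, and 6 (15.8%) had an unadjusted p under 0.05, against 22.6% of all genes. The lowest adjusted p-values were 0.0775 for Trim25 and 0.0912 for Irf1. For 12 of the 38 genes every LFLS library of number 1 lay above every LFLS library of number 2, and this held for 22.3% of all genes.

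Irf1 averaged 27.7 ± 2.72 CPM on HFHS and 36.9 ± 10.6 on LFLS among number 1 libraries (SD, n = 4 each). Among number 2 libraries it averaged 23.6 ± 3.73 CPM on HFHS and 17.2 ± 1.77 on LFLS (SD, n = 3 each). The means thus lay in opposite directions in the 2 title numbers, and the interaction passed only on leaving out LFLS 4 (adjusted p 0.0208). For Trim25 it passed only without LFLS 1 (0.0344), and for Oas3 only without HFHS 1 (0.0441).

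**Figure D4:**
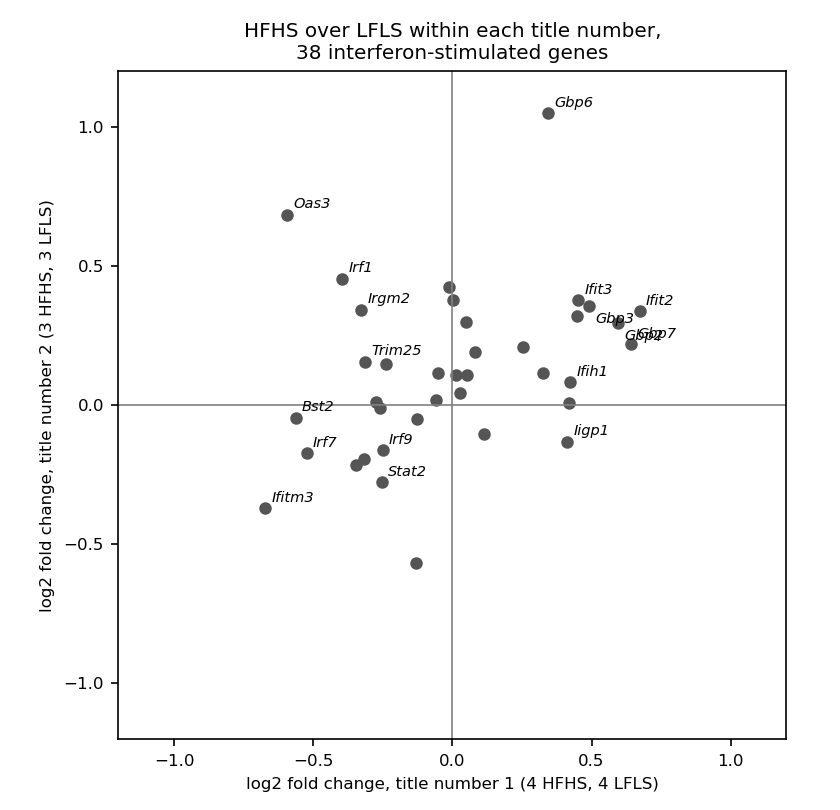
Log2 fold change (HFHS over LFLS) of the 38 genes in libraries of title number 1 (horizontal axis, 4 mice per diet) and of title number 2 (vertical axis, 3 mice per diet). Gbp7, Ifit2, Ifit3 and Ifitm3 have the same sign on both axes, and Irf1 (-0.40 and 0.45) and Oas3 (-0.59 and 0.69) have opposite signs.

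The sign of the difference moved with the base composition of the transcripts. Across the 38 genes the log2 fold change and the GC content of the longest transcript had a Pearson correlation of -0.745 (Spearman -0.762), against -0.309 (-0.411) over the 16351 tested genes with a value; these are correlations across genes that share libraries, given as a description. The guanylate-binding proteins had a median GC content of 44.3% and the signal transduction genes one of 52.4%. Per library, the correlation between deviation and GC content over all genes ran from -0.415 to 0.0513 on HFHS and from -0.366 to 0.591 on LFLS. On LFLS it was 0.215 to 0.591 in title number 1, highest in LFLS 1, and -0.366 to -0.252 in number 2. On HFHS it was -0.213 to 0.0513 in number 1 and -0.415 to -0.112 in number 2. The fits within each title number were made without the GC and length offsets. With those offsets the correlation of log2 fold change with GC content was -0.535 over the 38 genes and -0.0043 over all genes. Under those offsets 0 of the 38 passed (3.67% of all genes) and 7 had an unadjusted p under 0.05, against 20.5% of all genes. With the offsets and the title number together only Ifitm3 passed, at -0.51 with an adjusted p of 0.0151, where 7.01% of all genes passed. The 4 guanylate-binding proteins kept positive values under the offsets (median 0.37), and Gbp7 had 0.28 with an adjusted p of 0.136. Among genes not called in either fit, Trim25, Irf1 and Oas3 had -0.08, -0.04 and -0.11 under the offsets, and Rsad2 and Ifi44 had 0.13 and 0.02.

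**Figure D5:**
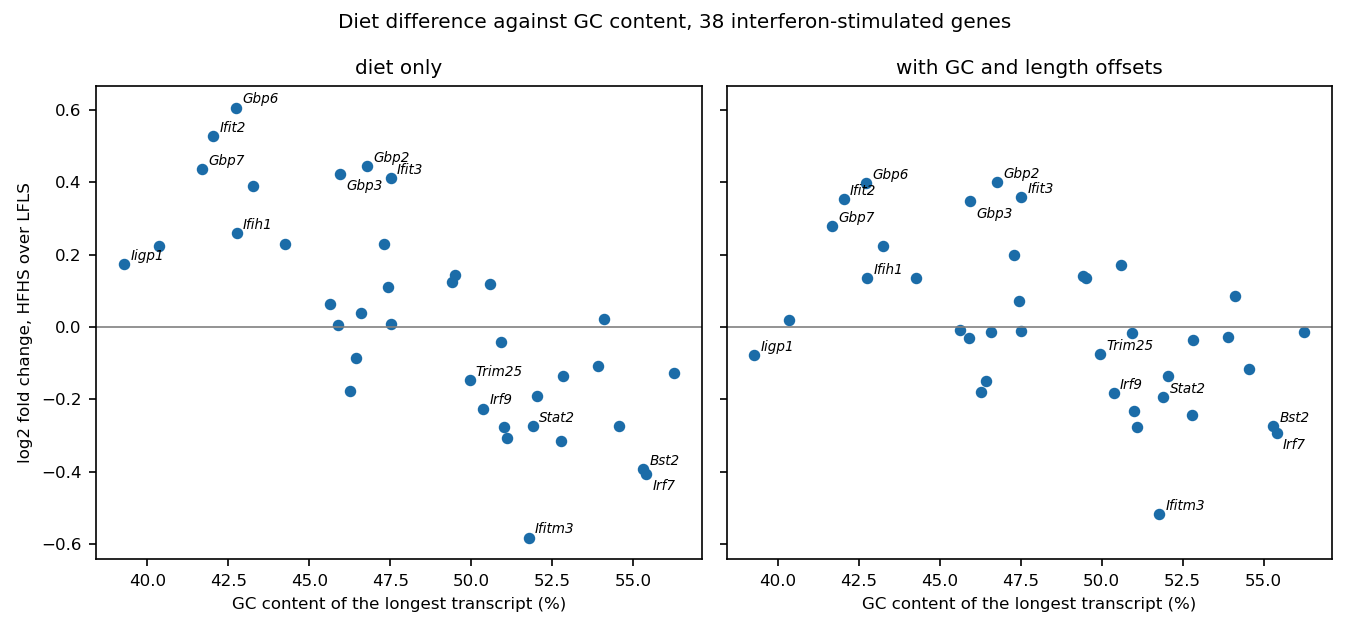
Log2 fold change (HFHS over LFLS) against the GC content of the longest transcript for the 38 genes, by diet alone on the left and with offsets for GC content and length on the right. Genes of low GC content lie mostly above 0 and genes of high GC content mostly below, with correlations of -0.745 on the left and -0.535 on the right.

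Outside the 38 genes, 2 of 118 tested genes of the pathway lists passed by diet alone (1.69%, against 2.81% of all genes), Gbp10 higher and Ifitm2 lower on HFHS. The exact permutation test called Tlr4 higher and Ifnar1 and Ifitm2 lower, and not Gbp10. Of 10 tested ligand, receptor and kinase genes, 22 sensors and upstream factors, and 15 negative regulators, 0 passed by diet alone in edgeR; at an unadjusted p of 0.05 there were 2 (20%), 5 (22.7%) and 3 (20%), against 19.6% of all genes. The interferon genes Ifna1, Ifna2, Ifna4 and Ifnb1 stood at the table's lowest value of 1 in every library. Ifng reached at most 6 counts and was above 1 in 7 libraries, so none of these ligands could be compared at this depth. The symbols Ifnl2 and Ifnl3 matched no gene name, and other interferon genes were not looked up. Ifnar1, a chain of the type I receptor, had 36.8 CPM in its lowest HFHS library, a median of 37.4 and 40.6 in its highest, against 41.0, 44.4 and 51.4 CPM on LFLS. All 7 HFHS libraries were below the lowest LFLS library, with a difference of -0.26 ± 0.07 (adjusted p 0.0687, and 0.0277 with the title number as a term). Of the other receptor chains, the interferon lambda receptor gene Il28ra differed by 0.76 ± 0.24 (adjusted p 0.0973), Ifngr2 by 0.27 ± 0.14 and Ifnar2 by -0.16 ± 0.08. Il28ra was near the floor, at 0.33 to 0.81 CPM on HFHS and 0.21 to 0.48 CPM on LFLS. In title number 2 alone it was not tested.

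Among sensors and upstream factors, the toll-like receptor genes Tlr4 and Tlr7 differed by 0.58 ± 0.17 (adjusted p 0.0785) and 0.57 ± 0.24 (0.208), and the adaptor genes Ticam1 and Myd88 by -0.38 ± 0.14 (0.156) and -0.32 ± 0.13 (0.187). Tlr4 and Ticam1 passed with the title number as a term, at 0.0471 and 0.0287. With the GC and length offsets Tlr4 and Tlr7 differed by 0.34 and 0.36, and with the offsets and the title number together Ticam1 passed (adjusted p 0.0464) and Tlr4 did not (0.105). Among negative regulators the phosphatase genes Ptpn11 and Ptpn1 differed by -0.24 and -0.29, Nlrc5, a regulator of MHC class I genes, by -0.25, and the nucleotide hydrolase gene Samhd1 by 0.20. With the offsets Ptpn11, Ptpn1 and Nlrc5 differed by -0.14, -0.17 and -0.12.

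Of 71 other interferon-induced genes 1 was higher and 1 lower by diet alone (2.82%, against 2.81% of all genes), and 11 and 4 had an unadjusted p under 0.05 (21.1%, against 19.6% of all genes). Ifitm2, a relative of Ifitm3 with a similar role, fell to between 30.1 and 40.6 CPM (median 36.3) on HFHS, against 40.9 to 61.7 CPM (median 49.9) on LFLS. The diets did not overlap in any library, and the difference was -0.57 ± 0.11 with an adjusted p of 0.0144, -0.58 in number 1 and -0.51 in number 2. Ifitm1, another gene of that family, had 12.6, 16.0 and 21.2 CPM as lowest, median and highest on HFHS, against 18.6, 22 and 37.4 CPM on LFLS. Only HFHS 3 lay above the lowest LFLS libraries, and the groups differed by -0.59 ± 0.16 (adjusted p 0.0530) by diet alone, with adjusted p-values of 0.0388 with the GC and length offsets and 0.0186 with the title number as a term. The 3 Ifitm genes are related in sequence, and reads of one may have been counted for another.

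Gbp10 rose to between 22.7 and 47.7 CPM (median 27.1) on HFHS, against 9.89 to 23.2 CPM (median 16.8) on LFLS. LFLS 3 alone reached into the HFHS range, and the difference was 0.95 ± 0.21 with an adjusted p of 0.0295, 0.85 in number 1 and 1.14 in number 2. It has no GC value in the annotation used, so the offsets could not remove a GC trend from it. The call was lost on leaving out LFLS 2, HFHS 2, HFHS 5 or HFHS 7. Trim12c, a relative of the restriction factor TRIM5, differed by 0.44 ± 0.13 (adjusted p 0.0758) by diet alone, passed with the title number as a term (0.0341), and differed by 0.18 (0.552) with the GC and length offsets. Chosen after their values were seen, the other tested guanylate-binding genes of the lists Gbp1, Gbp4, Gbp5, Gbp8 and Gbp9 differed by 0.35, 0.42, 0.47, 0.28 and 0.33, and Gbp11 by -0.80 ± 0.46, none with an adjusted p under 0.137. With the offsets Gbp4, Gbp5, Gbp8 and Gbp9 differed by 0.26, 0.31, 0.13 and 0.17.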

How the data were processed

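RNA from 14 mouse livers was extracted with Tri Reagent, treated with DNase and made into TruSeq libraries of polyadenylated RNA, sequenced as single reads of 50 bases on a HiSeq2000, per the labels' protocols. The submitters' processing notes name build mm9 and the tools CASAVA 1.8, TopHat, Bowtie and DESeq; the sources used here do not name the counting tool, the annotation or the strand setting, so reads of overlapping or antisense genes cannot be told apart. The deposited table holds a count per Ensembl gene, never below 1, with 11120 genes at 1 in every library. The authors' results table holds DESeq signal values (means of scaled counts), a fold ratio of group means, its log2 and p-values with adjusted p-values, per the file headers. That table was used for gene names and, where it is named, for the authors' p-values; its fold columns were not used, since their headers call the groups A and B.

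The diets were compared in R 4.3.3 by edgeR 4.0.16 on the counts (TMM scaling, default filter by diet, quasi-likelihood F test, no covariate), with Benjamini-Hochberg adjustment over 17223 genes. The standard error is the log2 fold change divided by the square root of F. Alternatives were DESeq2 1.42.0, limma 3.58.1 voom, exact permutation of each gene's log2 CPM with a prior count of 2 (smallest possible p 0.000583), other scalings and filters, subtraction of 1 from every count, title number or title pair as a term, each title number alone and each library left out. Offsets for GC content and length (lowess span 0.3, longest transcript of GENCODE vM21) were added after seeing the data, as were leaving out LFLS 1 with LFLS 2 and leaving out libraries with the title number as a term. Tried on simulated data were voom, DESeq2 and the edgeR fits by diet alone, with the title number as a term and with the offsets. The other fits were not tried on simulated data. No column duplicated another, and libraries of 1 diet correlated at 0.973 or more. P-values measure the spread between mice. The members, the pathway and marker lists and the tests were chosen with earlier results of these data known. Named in full were members called by diet alone or with the title number as a term, then those with the smallest p until 12 were reached, and the 4 with the highest mean CPM; of each pathway list up to 4 genes with the smallest p were named. One gene is not reported here.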

Additional observations from a re-analysis of the deposited data

Results flagged for a closer look

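Of the 76 groups of 7 libraries examined (38 genes in each diet), 9 had 1 library far from the others. Its gap to the nearest, as a share of the group's range, exceeded Dixon's 95% critical value. That value allows about 1 in 20 for independent, normally distributed values, whereas these CPM were not log-transformed and the genes share libraries. The share over all genes was not computed, so the 9 groups are not shown to be particular to these genes. In 5 of the 9 the library was LFLS 2. It had 56.3 CPM of Irf9, with the next LFLS library at 40.3. It had 20.1 CPM of Ifit1, with the next at 11.2, and 24.6 CPM of Ifit3, with the next at 18.2. It had 8.8 CPM of Isg15, with the next at 5.5, and 22.5 CPM of Usp18, with the next at 13.6. LFLS 1 stood apart for Ifitm3 alone, at 302 CPM with the next LFLS library at 194. On HFHS, HFHS 1 stood apart for Oas2 at 10.2 CPM, with the next at 6.07, and for Oas3 at 3.48 CPM, with the next at 1.89. HFHS 2 stood apart for Gbp3 at 16.5 CPM, with the next at 12. LFLS 2 is also the library with the highest sum of exocrine pancreas markers, and the part of that tissue in these values was not tested.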

How the results depend on the processing

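The number of members called depended on the setting, while the directions of the 14 members described in full mostly held: over 602 member values under other settings 546 kept direction and side of the threshold, 51 passed it newly and 5 reversed. No member was called by diet alone, so none could lose a call, and keeping the side of the threshold meant staying uncalled. Most of the 14 were chosen by their p in these data and the settings reuse the same libraries. The count is therefore not independent support for the directions. The reversals were Iigp1 in title number 2 alone (-0.13), with GC and length offsets (-0.078), with those offsets and the title number (-0.080) and with the title number on leaving out LFLS 1 (-0.0028; -0.0028 to 0.28 over all fits that left out 1 library), and Trim25 in title number 2 alone (0.16). The cause was not tested.

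Against 0 members higher and 0 lower by diet alone, and 484 genes called in all, the replicate block on the title number gave 3 and 2 with 1540 genes, voom 2 and 5 with 3274, title number 1 alone 0 and 2 with 1484, and the GC and length offsets with the title number block 0 and 1 with 1208. Library totals alone gave 1 higher, and so did leaving out LFLS 1 with LFLS 2. DESeq2 called 273 genes, no filter 173 and title number 2 alone 269, with 0 members each. Leaving out 1 library called 133 to 853 genes with 0 to 1 members higher and 0 to 2 lower. Ifit3 was called without LFLS 2, Gbp6 without LFLS 3, and Ifitm3 and Irf7 without LFLS 6. With the title number block it called 650 to 1862 genes with 0 to 2 members higher and 1 to 3 lower; Ifitm3 was called in 14 of 14, Irf7 in 6, Ifit3 in 3, Gbp6 and Gbp7 in 2 each. The interaction with title number called 0 members in full and 0 to 1 on leaving out a library. The median difference of the members stayed between -0.02 and 0.10 when 1 library was left out.

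Pathway genes outside the members, 1 higher and 1 lower by diet alone, were 6 and 5 with the title number block, 5 and 12 with voom, and 0 and 0 with DESeq2. No filter gave 0 higher. Fewer or more lower calls came from title number 2 alone (0), RLE size factors (2), at least 1 CPM in at least 7 libraries (2), the offsets (2), the offsets with the block (4) and title number 1 alone (5). Leaving out 1 library gave 0 to 1 higher and 1 to 4 lower, and with the block 1 to 6 and 2 to 8.

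Titles also pair the libraries across diets by number and letters, which the labels do not explain. Deviations of paired libraries correlated at -0.069 to 0.415, over 0.1 in 4 of 7 pairs. Of the 7 HFHS libraries, 3 correlated best with their own pair. These values do not settle whether the pairs share more than the title number. The replicate block on the title pair called 598 genes, 1 member higher (Ifit3) and 0 lower, and 2 and 2 pathway genes. Counts of 16 or more in every library stood behind each of the 38 genes, and Ifna1, Ifna2, Ifna4, Ifnb1 and Ifng were at the limit of this depth.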
